A study of Mus musculus with 15 samples.

Results

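Atg7 knockout (KO) cells at day 4 of the change from embryonic stem cells to epiblast-like cells were compared with Atg7 KO cells at day 2. The comparison uses the 3 libraries titled as Atg7 KO at day 4 and the 3 titled as Atg7 KO at day 2, which are 6 of the 15 libraries of the series, and every gene with enough counts. All 15 libraries hold polyadenylated RNA of the mouse embryonic stem cell (ESC) line E14TG2. The KO cells of day 4 and day 2 had been seeded on fibronectin in N2B27 medium with Activin A, bFGF and knockout serum replacement, a medium that drives ESCs towards epiblast-like cells (EpiLCs). Control cells of day 4 and day 2 (3 libraries each) were grown alike and are given beside the KO values for some genes only. The named genes whose change between the days differed from control cells are all listed in a later section. The remaining 3 libraries are control ESCs at day 0, taken from cultures on inactivated mouse embryonic fibroblasts with LIF, the MEK inhibitor PD0325901 and the GSK3 inhibitor CHIR99021. The KO series starts at day 2, as KO cells of day 0 were not analysed here. The way Atg7 was disrupted and the number of KO clones are not stated in the labels. Nothing in the labels ties the 3 libraries of a group to separate cultures. Their spread may therefore be technical, and it is this spread that the p-values measure.

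ESCs held with LIF and kinase inhibitors are in the naive state, run by a network of transcription factors such as NANOG, KLF4 and ESRRB. When the inhibitors are withdrawn and FGF and Activin are supplied, ERK signalling dismantles that network, the de novo DNA methyltransferases come on, and the cells pass into the formative state of EpiLCs. Autophagy delivers cytoplasm and organelles to lysosomes. Atg7 encodes the E1-like enzyme that activates ATG12 and the ATG8 proteins, so that its loss blocks their conjugation.

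Levels below are CPM, counts scaled to a fixed total per library, with library sizes adjusted by TMM. Changes are log2 values of KO day 4 over KO day 2, given ± standard error from edgeR's quasi-likelihood model of all 15 libraries, and p-values were adjusted (Benjamini-Hochberg) across the 15696 genes tested. A gene is said to rise or fall only where its adjusted p was under 0.05. The KO day 4 libraries held between 15300133 and 17282802 counts and the KO day 2 libraries between 19670798 and 23371546. Of the genes tested, 9922 differed between the days in KO cells, which is 63.2% of them. Replicate 3 of the day 0 ESCs, which enters the shared estimate of the spread, stood apart from the other replicates of its group (chi-square over its degrees of freedom of 31.8 and 24.2, against 5.86 between the other pair). Without it, an alternative chosen after seeing the data, 11036 genes changed in KO cells. At day 4, 4900 (31.2%) were higher and 5022 (32%) were lower. The counts of each gene list below are to be read beside these shares. A change of at least 2-fold was found for 1651 higher genes (10.5%) and 1524 lower genes (9.71%), and one of at least 4-fold for 585 (3.73%) and 347 (2.21%). The median change over all genes tested was -0.0072. For 73.3% of the genes the 3 libraries of one day did not overlap those of the other.

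Atg7, on chromosome 6 (chr6:114643097-114860614, plus strand, GRCm38, a protein-coding gene in GENCODE M21), kept reads in the KO libraries. Its level was 12.6, 12.7 and 10.4 CPM in the KO day 4 libraries, against 6.84, 7.53 and 7.11 CPM in the KO day 2 libraries. It rose by 0.73 ± 0.11 (adjusted p = 2.44e-05) without overlap between the days. Control cells had means of 19.5 CPM at day 4 and 13.6 CPM at day 2, above the KO means of 11.9 and 7.16 CPM on each day. Counts per gene do not show which exon is missing, so they check the label only in that the level was lower in KO cells.

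In control cells, 10741 genes (68.4%) changed between the same days, 5317 higher (33.9%) and 5424 lower (34.6%). Of the genes that rose in KO cells, 3446 also rose in control cells, which is 70.3% of the risen genes of KO cells and 64.8% of those of control cells. Of the genes that fell in KO cells, 3632 also fell in control cells, or 72.3% and 67% of each. The 2 genotypes moved in opposite directions for a smaller number: 361 genes rose in KO and fell in control cells, and 285 fell in KO and rose in control cells. The change itself differed between KO and control cells for 5674 genes (36.1%), as tested by the difference of the 2 changes in the same model, with the higher change in KO cells for 2919 (18.6%) and the lower for 2755 (17.6%). Control libraries share none of the KO libraries.

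**Figure D1:**
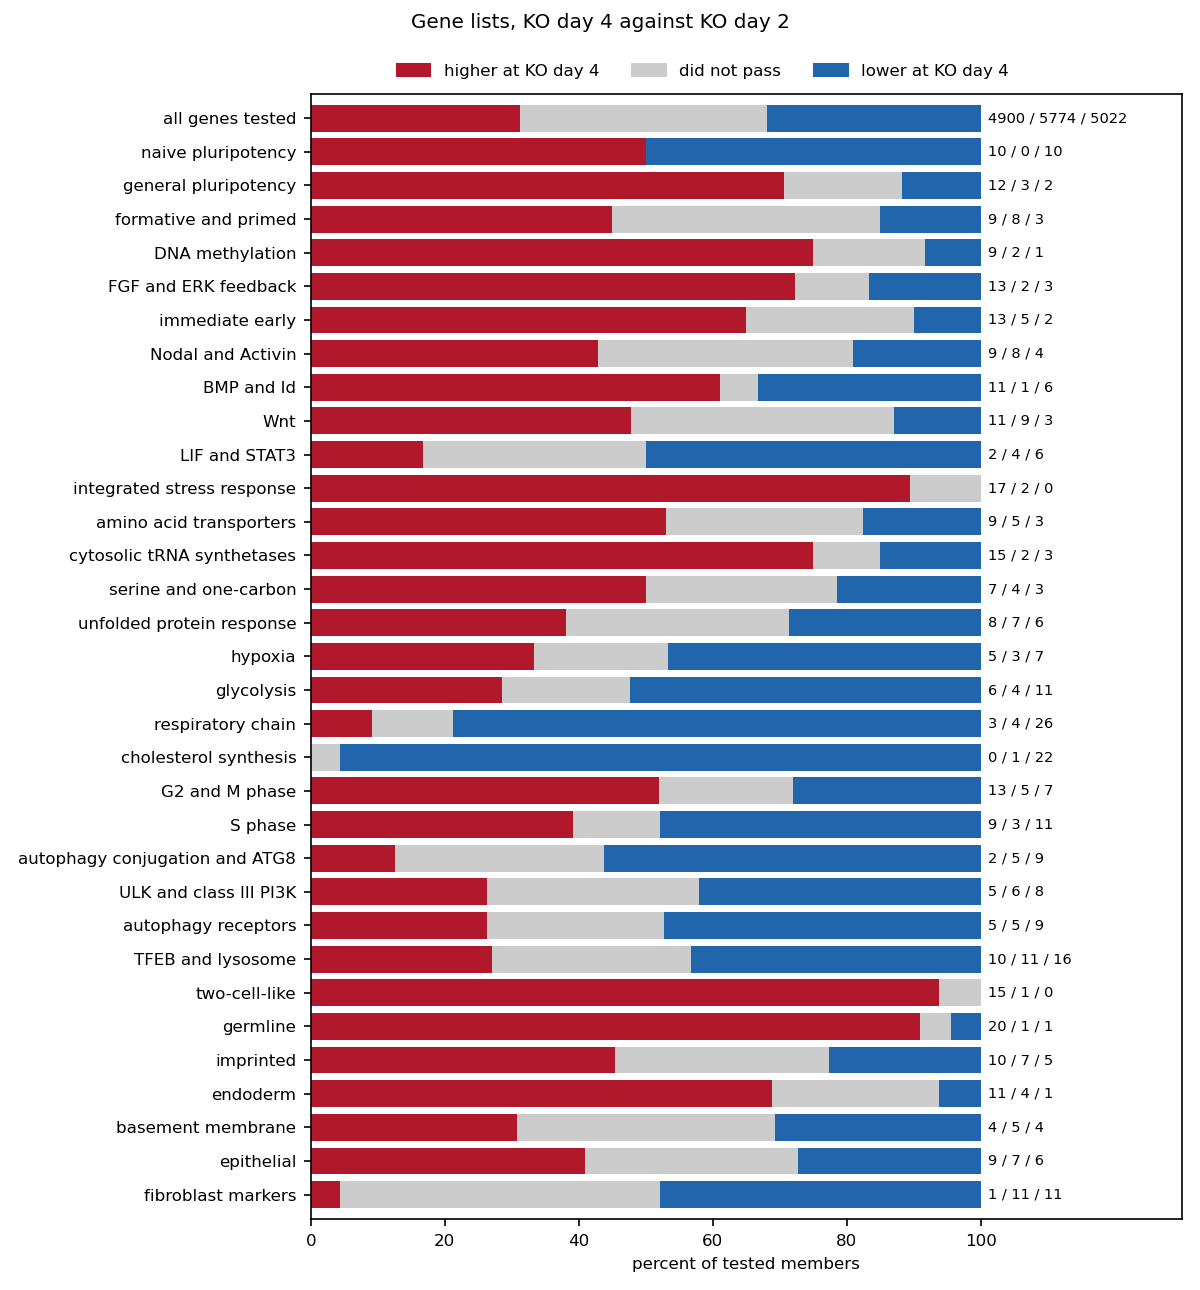
Share of the tested members of each gene list that were higher (red), lower (blue) or did not pass (grey) in KO day 4 against KO day 2 cells, with the 3 counts at the right in the order of the bar and all 15696 genes tested at the top. The bars of the integrated stress response, 2-cell-like and germline lists are nearly all red, and those of cholesterol synthesis and the respiratory chain are mostly blue.

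Naive pluripotency genes split evenly, with 10 of 20 higher and 10 lower at day 4 in KO cells and a median change of -0.05. Nanog, the homeobox factor at the centre of the naive network, had 677, 589.9 and 779.9 CPM in the KO day 4 libraries, against 1121, 1181 and 1198 CPM in the KO day 2 libraries. It fell by 0.77 ± 0.10 (adjusted p = 3.97e-06), and the lowest day 2 library lay well above the highest day 4 library. In control cells the means were 413 CPM at day 4 and 534 CPM at day 2 (difference -0.40 ± 0.14, adjusted p = 0.0323), a difference that missed the threshold in 8 of the fits that left out 1 library (adjusted p up to 0.0936). The KO day 4 libraries nevertheless lay above both control means. Klf2 and Klf4, Kruppel-like factors of the same network, changed by -1.02 ± 0.12 and -0.60 ± 0.10, and both fell. Klf4 lost less than in control cells, which changed by -1.48 ± 0.11 (adjusted p of the difference = 0.000231). Tfcp2l1, a LIF-driven naive factor, showed the same pattern with -0.34 ± 0.07 in KO and -0.97 ± 0.08 in control cells (adjusted p of the difference = 0.000276). Dppa5a, an RNA-binding protein of naive cells, fell to 568, 560.1 and 564 CPM in KO day 4 libraries, against 1793, 1681 and 1713 CPM in KO day 2 libraries, a change of -1.62 ± 0.06 beside -1.63 ± 0.06 in control cells.

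Several naive genes went the other way. Klf5 had 266, 251 and 236 CPM in the KO day 4 libraries, against 59.4, 68.7 and 81.6 CPM in the KO day 2 libraries. All day 4 values lay above all day 2 values, and the rise of 1.84 ± 0.13 (adjusted p = 7.94e-09) exceeded the 0.74 ± 0.13 of control cells (adjusted p of the difference = 0.00025). Esrrb, an orphan nuclear receptor, rose by 0.65 ± 0.07. Nr0b1, which encodes DAX1, rose by 0.71 ± 0.17, with no change past the test in control cells (-0.01 ± 0.17). Gbx2, a STAT3 target, rose in KO and control cells by 1.34 ± 0.19 and 1.20 ± 0.19. Zfp57, a zinc finger protein that holds methylation at imprinted regions, rose to 511, 484 and 539 CPM in KO day 4 libraries, against 297, 308 and 297 CPM in KO day 2 libraries. Its change of 0.77 ± 0.09 stood against a fall in control cells (-0.51 ± 0.09, adjusted p of the difference = 2.34e-06).

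The largest falls among the naive genes were those of Spic and Dppa3. Spic, an ETS-family transcription factor, was at 0.364, 1.21 and 0.979 CPM in the KO day 4 libraries, against 17.3, 15.1 and 18.3 CPM in the KO day 2 libraries. The days were far apart (-4.30 ± 0.29, adjusted p = 3.97e-09), and the level at KO day 2 was well above the control mean of the same day, 1.85 CPM. Dppa3 encodes STELLA, a maternal factor that protects against DNA methylation. It was at 5.22, 4.50 and 3.39 CPM in KO day 4 libraries, against 16.4, 17.5 and 18.7 CPM in KO day 2 libraries, and fell by 2.00 ± 0.17 (adjusted p = 4.85e-08). Control cells rose over the same days by 0.65 ± 0.14, to a mean of 39.2 CPM at day 4, and the difference was -2.65 ± 0.22 (adjusted p = 8.9e-07).

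**Figure D2:**
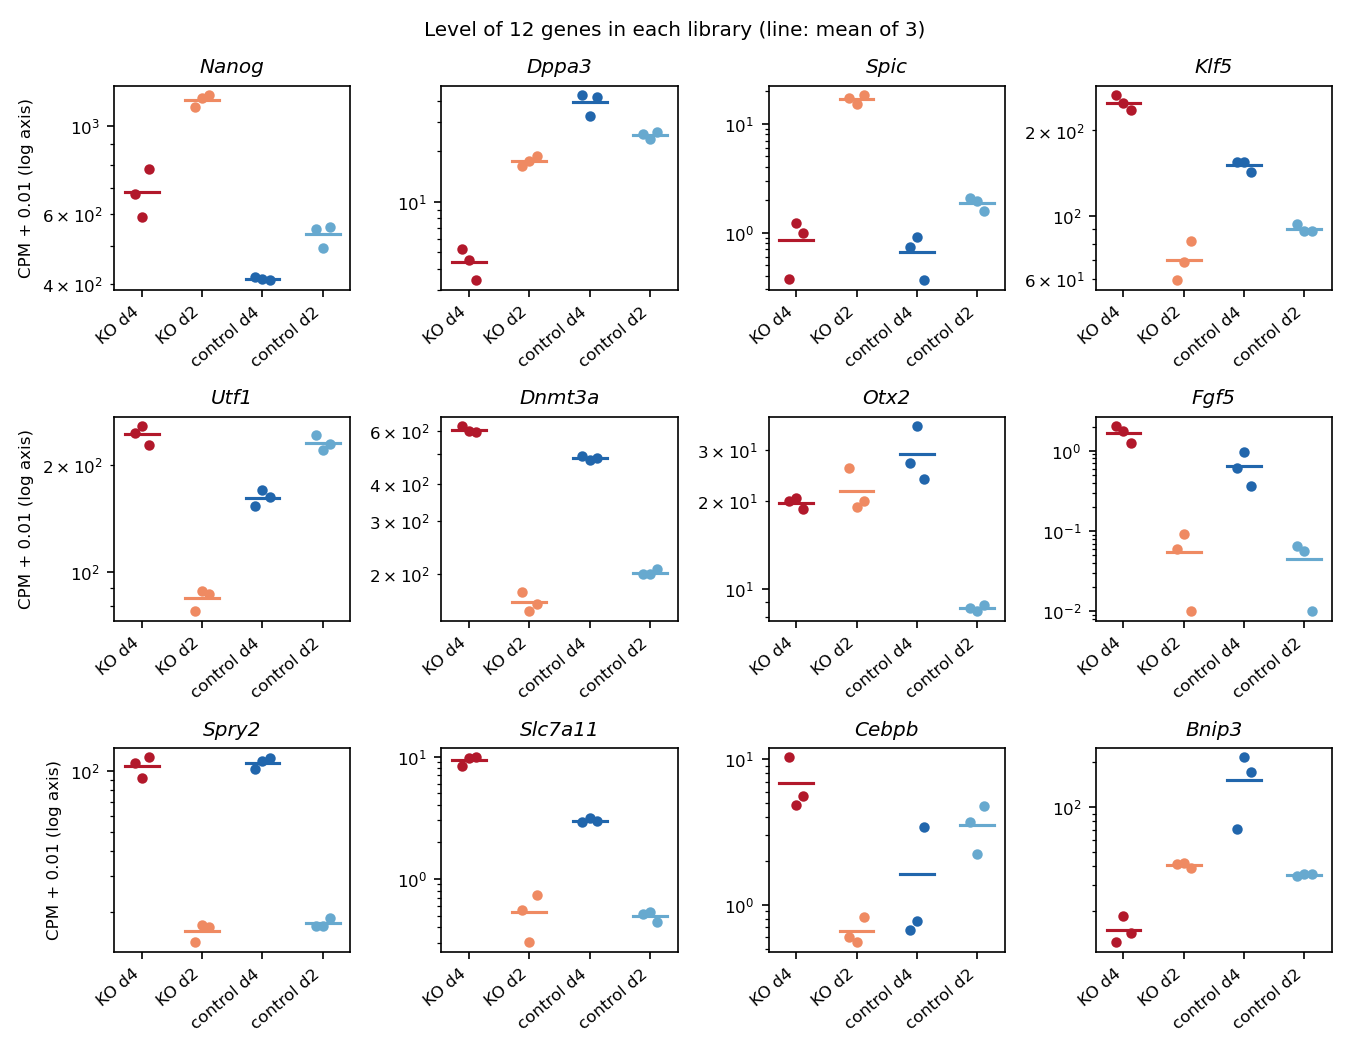
Level of 12 genes in each library (points, CPM + 0.01 on a log axis, 1 panel per gene with its own axis) and the mean of the 3 libraries (line) for KO day 4, KO day 2, control day 4 and control day 2. In KO cells, Nanog, Dppa3, Spic and Bnip3 are lower at day 4 in all 3 libraries, Klf5, Utf1, Dnmt3a, Fgf5, Spry2, Slc7a11 and Cebpb are higher in all 3, and the Otx2 levels overlap.

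General pluripotency genes, which stay on in both naive and formative cells, mostly rose: 12 of 17 were higher and 2 lower, with a median change of 0.75. Pou5f1, which encodes OCT4, fell to 562, 618 and 561 CPM in the KO day 4 libraries, against 819, 876 and 842 CPM in the KO day 2 libraries. Its fall (-0.54 ± 0.05) was smaller than that of control cells (-0.98 ± 0.05, adjusted p of the difference = 0.000302). Sox2 was the other member that fell, at -0.13 ± 0.06 (adjusted p = 0.0464). Its libraries overlapped between the days, and the call was lost under RLE and upper quartile scaling, with DESeq2 and without any 1 of 4 libraries. Utf1, a chromatin factor of pluripotent cells on chromosome 7 (chr7:139943789-139945112, plus strand, GRCm38), had 246, 256 and 228 CPM in KO day 4 libraries, against 77.2, 88.1 and 86.6 CPM in KO day 2 libraries. It rose by 1.53 ± 0.16 (adjusted p = 5.18e-07) while it fell by 0.51 ± 0.16 in control cells (difference 2.05 ± 0.23). Lin28b, a repressor of let-7 maturation, rose by 2.16 ± 0.13, and Tdgf1, the Nodal co-receptor, by 1.63 ± 0.16. Dppa2 rose by 1.67 ± 0.12, nearly as in control cells (1.66 ± 0.12) and Sall4 by 0.31 ± 0.06. Trim28, the co-repressor KAP1, rose by 0.80 ± 0.05 to 1444, 1484 and 1445 CPM in KO day 4 libraries, against 823, 836 and 851 CPM in KO day 2 libraries, with -0.08 ± 0.05 in control cells (adjusted p of the difference = 9.94e-07).

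Formative and primed genes were higher in 9 of 20 cases and lower in 3, with a median change of 0.37. Fgf5, the common EpiLC marker, was near 0 at day 2. It had 82 counts over the 3 KO day 4 libraries, against 3 counts over the 3 KO day 2 libraries, a ratio of 37.6 after scaling (95% exact binomial interval 12.4 to 186, for counting error only). The levels were 2.00, 1.73 and 1.24 CPM in KO day 4 libraries, against 0.0495, 0.0832 and 0 CPM in KO day 2 libraries (adjusted p = 2.07e-06), and the control mean at day 4 was 0.640 CPM. Pou3f1, which encodes OCT6, rose to 5.53, 5.65 and 5.28 CPM in KO day 4 libraries, against 1.73, 2.25 and 2.23 CPM in KO day 2 libraries, a change of 1.40 ± 0.25. Otx2, the homeobox factor that directs OCT4 to formative enhancers, did not pass. It was at 20.0, 20.5 and 18.9 CPM in KO day 4 libraries, against 26.0, 19.1 and 20.0 CPM in KO day 2 libraries (-0.13 ± 0.15, adjusted p = 0.459). Control cells averaged 29.0 CPM at day 4, against 8.59 CPM at day 2, a rise of 1.75 ± 0.16, and the 2 changes differed (adjusted p = 9.46e-06).

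Tcf15, a bHLH factor of cells primed to differentiate, had 23.4, 21.9 and 20.1 CPM in KO day 4 libraries, against 2.97, 6.45 and 6.86 CPM in KO day 2 libraries. It rose by 1.99 ± 0.28 where control cells showed -0.04 ± 0.26 (adjusted p of the difference = 0.000601). The control means were 20.2 CPM at day 4 and 20.8 CPM at day 2, so the KO and control levels were far apart only at day 2. The 3 members that fell were Tead2, a partner of YAP (-1.32 ± 0.05), Sall2, a zinc finger factor (-0.57 ± 0.16), and Car14, a carbonic anhydrase (-2.71 ± 0.51).

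DNA methylation genes mostly rose, with 9 of the 12 tested members higher, 1 lower and a median change of 0.82. Dnmt3a, a de novo DNA methyltransferase, had 620.4, 596 and 593 CPM in the KO day 4 libraries, against 174, 150.2 and 159 CPM in the KO day 2 libraries. It rose by 1.91 ± 0.08 (adjusted p = 2.24e-11), more than in control cells (1.27 ± 0.08, adjusted p of the difference = 0.000233). Dnmt3b, the second de novo enzyme, rose by 1.67 ± 0.20 to 234, 217 and 218 CPM in KO day 4 libraries, against 67.6, 70.9 and 71.8 CPM in KO day 2 libraries. Tet2, which oxidises methylcytosine, rose by 0.96 ± 0.08. The maintenance genes Dnmt1 (0.13 ± 0.07, adjusted p = 0.0939) and Uhrf1 (0.13 ± 0.10, adjusted p = 0.269) did not pass, although their libraries did not overlap. Dnmt1 was called by DESeq2 (adjusted p = 0.049), and both were called with only the groups compared and without replicate 3 of the day 0 ESCs. Both fell in control cells, and their changes differed between KO and control cells (adjusted p = 0.00162 for Dnmt1 and 0.0211 for Uhrf1, which was 0.0522 without replicate 3 of control day 4). The member that fell was Dppa3.

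FGF signalling is read out by feedback inhibitors that ERK induces. Of the 18 members of that list, 13 rose and 3 fell, with a median change of 0.79. Spry2, a Sprouty inhibitor of receptor signalling, had 109, 91.7 and 117 CPM in KO day 4 libraries, against 14.1, 17.1 and 16.9 CPM in KO day 2 libraries. It rose by 2.72 ± 0.18 (adjusted p = 2.47e-09), close to the 2.63 ± 0.17 of control cells. Dusp4, a phosphatase of ERK, rose by 1.47 ± 0.09, where control cells showed 1.83 ± 0.09 (adjusted p of the difference = 0.0321, which missed the threshold in 6 of the fits that left out 1 library, at up to 0.096). Spred2, an inhibitor of the step from RAS to RAF, rose by 1.07 ± 0.06 and more than in control cells (0.49 ± 0.06, adjusted p of the difference = 7.22e-05). The 3 that fell were the ligands Fgf4 (-1.19 ± 0.08) and Fgf8 (-1.62 ± 0.44) and the receptor Fgfr3 (-1.46 ± 0.19). Fgf4, the ligand of ESCs themselves, was at 107, 106 and 115 CPM in KO day 4 libraries, against 238, 250.4 and 261 CPM in KO day 2 libraries.

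Immediate early genes rose in 13 of 20 cases and fell in 2. Atf3 led by significance and is described with the stress response. Btg2, an antiproliferative co-regulator, rose by 1.27 ± 0.11 and Ier2 by 0.91 ± 0.13. The pair that fell, Cyr61 and Ctgf, encode matricellular proteins known as targets of YAP and TEAD. Ctgf was at 52.3, 62.9 and 55.7 CPM in KO day 4 libraries, against 183, 144 and 174 CPM in KO day 2 libraries. It changed by -1.55 ± 0.11 in KO and 0.00 ± 0.10 in control cells, and Cyr61 by -1.31 ± 0.09 and -0.22 ± 0.08 (adjusted p of the differences = 2e-06 and 6.91e-06). Median changes of the list were 0.87 in KO and 1.59 in control cells. The change was lower in KO than in control cells for 6 members and higher for 2, against 17.6% and 18.6% of all genes tested.

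In the Nodal and Activin list, 21 of 23 members were tested, 9 rose and 4 fell. Lefty2, a secreted Nodal antagonist and direct target, had 394, 443 and 390.5 CPM in KO day 4 libraries, against 36.1, 30.9 and 34.0 CPM in KO day 2 libraries, a rise of 3.60 ± 0.21 (adjusted p = 7.97e-10) that was 3.54 ± 0.21 in control cells. Inhbb, the Activin B subunit, rose to 51.3, 46.2 and 56.8 CPM in KO day 4 libraries, against 10.1, 21.1 and 15.1 CPM in KO day 2 libraries (1.73 ± 0.22). Control cells had -0.15 ± 0.23 for Inhbb, a difference that passed (adjusted p = 0.000231). Smad3, which carries the signal to the nucleus, fell (-0.55 ± 0.09).

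BMP and Id genes divided by member, with 11 of 18 higher and 6 lower. Id1, an inhibitor of bHLH factors and a BMP target, rose to 33.7, 33.1 and 32.6 CPM in KO day 4 libraries, against 5.0, 7.57 and 6.17 CPM in KO day 2 libraries (2.40 ± 0.33). Its relative Id2 fell to 6.44, 7.32 and 7.11 CPM in KO day 4 libraries, against 23.5, 27.2 and 24.8 CPM in KO day 2 libraries (-1.85 ± 0.13). The ligand Bmp8b rose by 2.87 ± 0.39 with no change past the test in control cells (0.23 ± 0.32, adjusted p of the difference = 0.000829). The ligand Bmp7 fell to 3.28, 3.11 and 2.87 CPM in KO day 4 libraries, against 28.6, 26.5 and 26.8 CPM in KO day 2 libraries (-3.14 ± 0.24).

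Of the 23 Wnt genes tested 11 rose and 3 fell. The co-receptor Lrp6 (0.62 ± 0.07) and the feedback ligase Znrf3 (0.76 ± 0.10) rose, while Cdx1, a caudal homeobox target on chromosome 18 (-1.36 ± 0.31), and the effector Tcf7 (-0.23 ± 0.05) fell. Of 12 LIF and STAT3 genes 2 rose and 6 fell, with a median change of -0.22, and only 1 rose without any 1 of 4 libraries. Pim3, a STAT3 target kinase, was at 85.9, 105 and 86.6 CPM in KO day 4 libraries, against 181, 208 and 222 CPM in KO day 2 libraries (-1.14 ± 0.09). The NF-kB cofactor Bcl3 rose by 0.98 ± 0.15.

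The integrated stress response (ISR) lowers general translation and, through the transcription factor ATF4, switches on genes of amino acid supply and of the stress response itself. Of its 19 members 17 rose between day 2 and day 4 in KO cells, none fell and 2 did not pass, and the median change was 1.20. Slc7a11, the cystine importer, had 8.32, 9.74 and 9.85 CPM in KO day 4 libraries, against 0.545, 0.291 and 0.728 CPM in KO day 2 libraries. All day 4 libraries were above 8 CPM and all day 2 libraries below 1 CPM (4.15 ± 0.44, adjusted p = 5.2e-07). Atf3, a bZIP factor induced by stress, had 16.1, 13.2 and 13.9 CPM in KO day 4 libraries, against 2.82, 2.33 and 3.09 CPM in KO day 2 libraries (2.39 ± 0.19). Sesn2, a leucine sensor upstream of mTORC1, rose to 165, 169 and 146 CPM in KO day 4 libraries, against 72.6, 63.1 and 73.0 CPM in KO day 2 libraries (1.20 ± 0.07, adjusted p = 6.67e-10). Atf5, a bZIP relative of ATF4, rose to 57.1, 57.3 and 52.2 CPM in KO day 4 libraries, against 19.8, 17.6 and 19.2 CPM in KO day 2 libraries. Its change of 1.56 ± 0.15 was above that of control cells (0.48 ± 0.17, adjusted p of the difference = 0.00151).

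Cebpb and Chac1 were chosen after their values were seen. Cebpb, a C/EBP factor that partners ATF4, had 10.3, 4.84 and 5.55 CPM in KO day 4 libraries, against 0.595, 0.541 and 0.814 CPM in KO day 2 libraries, with 1 day 4 library well above the other two. It rose by 3.39 ± 0.52 where control cells changed by -1.12 ± 0.49 without passing, and the changes differed (adjusted p = 0.000169). Chac1, a glutathione-degrading enzyme, rose by 1.80 ± 0.24, to 35.0, 44.4 and 31.5 CPM in KO day 4 libraries, against 11.6, 9.03 and 11.2 CPM in KO day 2 libraries. The members that did not pass were Nupr1 (0.26 ± 0.15, adjusted p = 0.16) and Gdf15 (-0.37 ± 0.16, adjusted p = 0.0506), which averaged 23.3 and 21.1 CPM at KO day 2, against 7.80 and 16.4 CPM at control day 2. Gdf15 lay near the threshold and was called lower under 8 alternatives: the replicate block (adjusted p = 0.04997), no filter, the filter at 10 CPM, the fit without the genes of 1 chromosome (0.0485), only the groups compared (0.00541), and without replicate 2 of KO day 4, replicate 3 of KO day 2 or replicate 3 of the day 0 ESCs. In control cells 12 members rose and 4 fell, with a median change of 0.50. The change was higher in KO than in control cells for 10 members and lower for none (18.6% and 17.6% of all genes tested).

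Genes bound by ATF4 often carry the C/EBP-ATF response element, written TGATGNAA. It was searched on both strands in the RefSeq promoter windows (GRCm38.p6, 250 bases before to 50 after the start). At least 1 window held it for 8 of the 18 ISR members that have a window (44.4%), against 348 of 12143 tested genes (2.87%). The windows of the 3 members with the element that rose most are shown, 5′ to 3′ on the gene's strand, with each match in capitals (TTGCATCA is the element read on the other strand).
Slc7a11 (chr3:50443564-50443863, minus strand): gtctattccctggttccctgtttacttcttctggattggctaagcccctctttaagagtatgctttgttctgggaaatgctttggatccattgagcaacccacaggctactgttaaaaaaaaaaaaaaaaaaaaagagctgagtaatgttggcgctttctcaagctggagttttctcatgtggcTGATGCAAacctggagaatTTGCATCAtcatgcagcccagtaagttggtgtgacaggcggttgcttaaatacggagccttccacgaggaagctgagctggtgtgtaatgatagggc
Atf3 (chr1:191183284-191183583, minus strand): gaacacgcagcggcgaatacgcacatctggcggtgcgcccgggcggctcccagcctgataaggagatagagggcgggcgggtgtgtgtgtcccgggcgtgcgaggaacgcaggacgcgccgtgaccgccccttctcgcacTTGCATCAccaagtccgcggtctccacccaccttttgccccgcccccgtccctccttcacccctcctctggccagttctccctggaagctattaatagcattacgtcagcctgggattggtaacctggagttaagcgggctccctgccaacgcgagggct
Chac1 (chr2:119350992-119351291, plus strand): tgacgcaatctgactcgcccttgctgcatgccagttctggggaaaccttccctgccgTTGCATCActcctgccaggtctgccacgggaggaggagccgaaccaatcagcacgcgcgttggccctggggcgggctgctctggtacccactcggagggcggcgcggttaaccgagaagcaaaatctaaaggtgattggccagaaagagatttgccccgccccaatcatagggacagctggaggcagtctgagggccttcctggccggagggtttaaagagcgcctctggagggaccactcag
Slc7a11 holds 2 matches, the first from base 185 of the window, and Atf3 and Chac1 hold 1 each, from base 141 and base 58. A match describes the letters of the window and does not show that a factor binds there. The list was chosen by what its genes are known to do, so the share of members with the element is a description and no test.

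Of 17 amino acid transporters 9 rose and 3 fell, with a median change of 0.57, whereas 4 rose and 8 fell in control cells. Slc7a5, the large neutral amino acid exchanger, had 466, 499 and 414 CPM in KO day 4 libraries, against 205, 203 and 205 CPM in KO day 2 libraries. It rose by 1.17 ± 0.09 and fell by 0.29 ± 0.09 in control cells (adjusted p of the difference = 8.57e-07). Slc7a1, the cationic amino acid carrier, rose by 0.94 ± 0.11, with -0.09 ± 0.11 in control cells (adjusted p of the difference = 8.75e-05). The neutral amino acid carriers Slc43a1 (-1.23 ± 0.14) and Slc38a4 (-0.36 ± 0.06) fell. Cytosolic tRNA synthetases rose in 15 of 20 cases and fell in 3. Wars, which charges tryptophan, was at 152, 154 and 144 CPM in KO day 4 libraries, against 79.2, 78.0 and 77.4 CPM in KO day 2 libraries (0.94 ± 0.08), with 0.06 ± 0.08 in control cells (adjusted p of the difference = 1.83e-05). Gars, the glycine enzyme, rose by 0.91 ± 0.08 and Qars, the glutamine enzyme, fell (-0.38 ± 0.06).

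Of 14 serine and one-carbon genes 7 rose and 3 fell (5 fell without replicate 3 of the day 0 ESCs). Mthfd2, the mitochondrial folate enzyme, rose to 291, 303 and 272 CPM in KO day 4 libraries, against 151, 142 and 146 CPM in KO day 2 libraries (0.98 ± 0.11), where control cells showed -0.01 ± 0.11 (adjusted p of the difference = 0.000124). Tyms, thymidylate synthase, rose by 1.11 ± 0.06. Pycr1, of proline synthesis, and Cbs, of cysteine synthesis, changed by -0.99 ± 0.09 and -1.0 ± 0.14, smaller falls than in control cells (-1.64 ± 0.10 and -1.88 ± 0.15). The change was higher in KO than in control cells for 11 of the 14 members and lower for 1. The shares of all genes tested were 18.6% and 17.6%. The unfolded protein response list was divided, with 8 of 21 members higher and 6 lower, and between 3 and 4 were lower when any 1 KO library was left out. Hspa5, the chaperone BiP, rose by 0.97 ± 0.11 and Xbp1, its regulator, by 0.66 ± 0.07, while the disulfide isomerase Pdia6 (-0.54 ± 0.08) and the sensor Atf6 (-0.30 ± 0.09) fell.

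**Figure D3:**
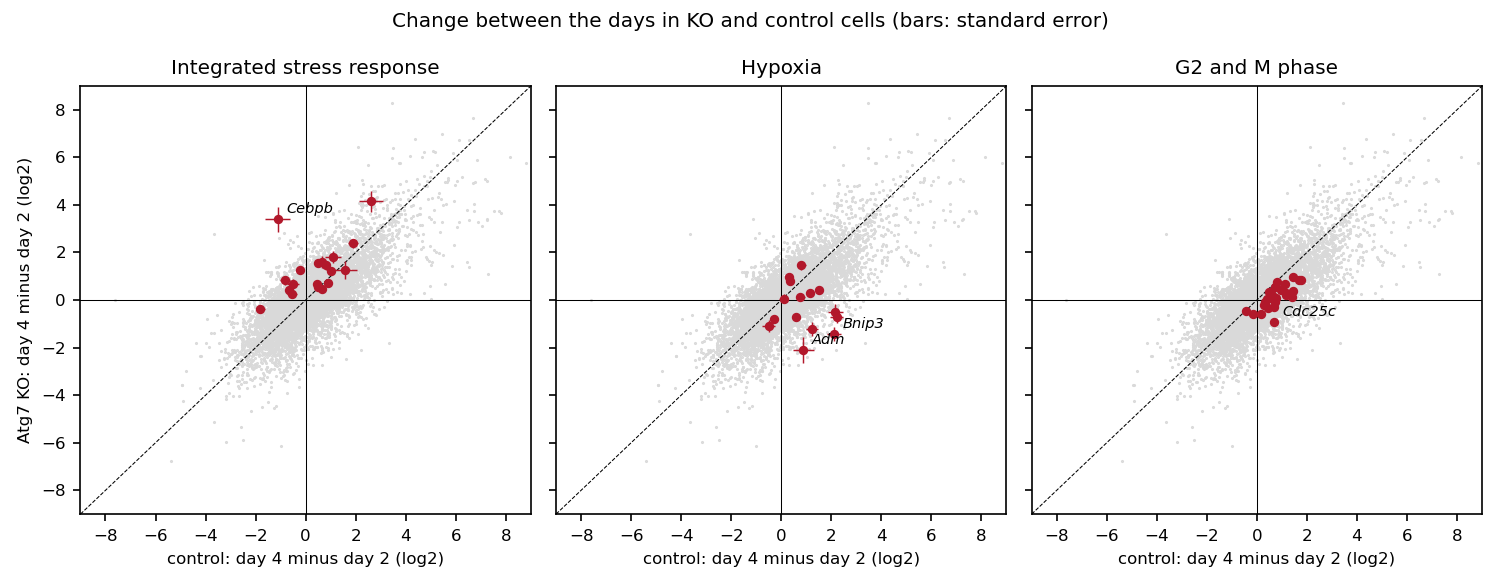
Change between the days in Atg7 KO cells (vertical) against control cells (horizontal), both log2 of day 4 over day 2, for all tested genes (grey) and for the members of 3 lists (red, bars show the standard error, dashed line marks equal change). The change was higher in KO cells for 10 ISR members and lower for none, with Cebpb at 3.39 in KO and -1.12 in control cells, Bnip3 lies at -1.44 and 2.11 in the hypoxia panel, and G2 and M phase members lie mostly below the line.

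In the hypoxia list, which holds targets of the transcription factor HIF1 and Hif1a itself, 7 of 15 members were lower in KO cells. Higher were 5, Hif1a among them, and the median change was -0.50. In control cells 11 rose, 1 fell and the median change was 0.81. Bnip3, a mitochondrial receptor for autophagy and a HIF1 target, had 12.4, 18.6 and 14.2 CPM in KO day 4 libraries, against 41.6, 42.1 and 38.9 CPM in KO day 2 libraries. It fell by 1.44 ± 0.28 (adjusted p = 0.000328) without overlap between the days. In control cells it rose by 2.11 ± 0.26 to a mean of 152 CPM at day 4, against 35.1 CPM at day 2 (adjusted p of the difference = 5.57e-06). P4ha1, a prolyl hydroxylase of collagen, fell to 74.1, 80.9 and 68.7 CPM in KO day 4 libraries, against 124, 131 and 117 CPM in KO day 2 libraries (-0.73 ± 0.13), and rose in control cells (0.59 ± 0.13). Mxi1, an antagonist of MYC, fell (-0.79 ± 0.08).

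Another 2 members were chosen after their values were seen. Adm, the adrenomedullin gene, was at 0.850, 0.922 and 0.652 CPM in KO day 4 libraries, against 2.13, 5.62 and 2.70 CPM in KO day 2 libraries (-2.10 ± 0.53, adjusted p = 0.00251), with 0.89 ± 0.41 in control cells. Egln3, a prolyl hydroxylase that marks HIF for breakdown, was at 7.41, 6.97 and 6.79 CPM in KO day 4 libraries, against 11.4, 11.4 and 11.6 CPM in KO day 2 libraries (-0.70 ± 0.28, adjusted p = 0.0356), a call that was lost when any 1 KO library was left out. Control cells rose by 2.23 ± 0.26 for Egln3, and that difference passed (adjusted p = 2.41e-05). Not all of the list fell: Hif1a itself rose by 0.81 ± 0.09 and the growth factor gene Vegfa by 0.97 ± 0.12, each by more than in control cells (0.36 ± 0.09 and 0.30 ± 0.13). The change was lower in KO than in control cells for 10 of the 15 members and higher for 3. Over all genes tested these shares were 17.6% and 18.6%.

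Of the 21 glycolysis genes tested 11 fell and 6 rose, with a median change of -0.45, whereas 10 rose and 6 fell in control cells. Aldoc, an aldolase, was at 0.729, 1.21 and 1.11 CPM in KO day 4 libraries, against 9.02, 13.3 and 10.5 CPM in KO day 2 libraries (-3.42 ± 0.38, adjusted p = 9.79e-07). Control cells had -0.76 ± 0.28 for Aldoc (adjusted p of the difference = 0.000535). Pfkm, a phosphofructokinase, fell to 40.3, 40.7 and 33.5 CPM in KO day 4 libraries, against 119, 122 and 115 CPM in KO day 2 libraries (-1.63 ± 0.07). Hk1, a hexokinase, fell by 1.40 ± 0.08, while Hk2, its inducible relative, rose by 0.78 ± 0.10. Gapdh fell to 2456, 2484 and 2329 CPM in KO day 4 libraries, against 3583, 3668 and 3529.7 CPM in KO day 2 libraries (-0.57 ± 0.06). Pdk1, which holds pyruvate back from the mitochondria, rose by 1.19 ± 0.11, less than the 1.85 ± 0.11 of control cells (adjusted p of the difference = 0.00292).

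Respiratory chain subunits fell together, with 26 of 33 lower and 3 higher and a median change of -0.33. Control cells were alike in count, with 25 lower and 3 higher. Sdhc, a subunit of complex II, was at 87.3, 88.5 and 83.6 CPM in KO day 4 libraries, against 134, 142 and 138 CPM in KO day 2 libraries (-0.67 ± 0.06). Atp5a1, an ATP synthase subunit encoded on chromosome 18, fell by 0.56 ± 0.04. Sdha (0.19 ± 0.05) and the complex I subunit Ndufa9 (0.26 ± 0.05) were among the 3 that rose.

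Cholesterol synthesis genes, targets of SREBP2, fell in 22 of 23 cases, with a median change of -0.67. Dhcr7, which makes cholesterol in the last step, was at 43.2, 42.2 and 41.4 CPM in KO day 4 libraries, against 127, 139 and 135 CPM in KO day 2 libraries (-1.66 ± 0.06, adjusted p = 9.91e-12). Fdps, of isoprenoid synthesis, was at 40.7, 42.9 and 40.1 CPM in KO day 4 libraries, against 119.6, 124 and 116 CPM in KO day 2 libraries (-1.54 ± 0.07). Insig1, the sterol-dependent brake on SREBP, fell by 1.67 ± 0.08. The same 22 of 23 count held in control cells with a larger median fall (-1.08). The change was higher (less negative) in KO cells for 12 members and lower for 1, against 18.6% and 17.6% of all genes tested.

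Of 25 genes of G2 and M phase 13 rose and 7 fell, with a median change of 0.14, against 22 risen and 2 fallen in control cells with a median of 0.72. Plk1, the mitotic polo kinase, had 196, 179.6 and 188 CPM in KO day 4 libraries, against 103, 84.1 and 96.9 CPM in KO day 2 libraries (0.99 ± 0.07), a smaller rise than in control cells (1.43 ± 0.07, adjusted p of the difference = 0.0034). Cdc20, the activator of the anaphase-promoting complex, rose by 0.75 ± 0.06, near the 0.81 ± 0.06 of control cells, and cyclin A2 (Ccna2) rose by 0.56 ± 0.05. Anln, which encodes anillin of the cleavage furrow, fell to 289, 310.4 and 302 CPM in KO day 4 libraries, against 476, 430.2 and 444 CPM in KO day 2 libraries (-0.58 ± 0.07), where control cells showed 0.15 ± 0.07 (adjusted p of the difference = 2.88e-05). Ccnb2, cyclin B2, fell by 0.59 ± 0.06. Cdc25c, the phosphatase that frees CDK1 and a gene of chromosome 18, fell by 0.92 ± 0.08 and rose in control cells (0.70 ± 0.08). The change was lower in KO than in control cells for 22 of the 25 members and higher for none, against 17.6% of all genes tested with a lower change.

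S phase genes were divided, with 9 of 23 higher and 11 lower. Pola1, a subunit of DNA polymerase alpha, rose by 0.61 ± 0.06 and Pcna, the sliding clamp, by 0.46 ± 0.05. Cdc45 (-0.64 ± 0.06) and Gins2 (-0.81 ± 0.08), parts of the replicative helicase, fell. Of the 19 genes of the p53 list, which holds Trp53 and targets of p53, 5 rose and 5 fell (8 and 8 without replicate 3 of the day 0 ESCs). Of all genes tested, 31.2% rose and 32% fell. Trp53 itself rose to 365, 349 and 358 CPM in KO day 4 libraries, against 161, 156 and 162 CPM in KO day 2 libraries (1.16 ± 0.06). The other members that rose were p53 targets, so the targets moved both ways. Among those that fell were Cdkn1a, the p21 inhibitor (-0.57 ± 0.11), and Sesn1 (-0.92 ± 0.11). In the BCL2 family 6 of 15 fell and 1 rose. The riser was Hrk, a BH3-only activator of cell death, with 6.50, 7.26 and 5.61 CPM in KO day 4 libraries, against 1.09, 1.41 and 1.24 CPM in KO day 2 libraries (2.36 ± 0.27). Hrk fell in control cells (-0.69 ± 0.29, adjusted p of the difference = 2.71e-05). The BH3-only gene Bmf (-1.55 ± 0.13) and the survival gene Mcl1 (-0.52 ± 0.07) fell. Of the 16 genes of the NRF2 list 4 rose, with the gene of NRF2 itself among them, and 3 fell. Txnrd1, thioredoxin reductase, rose (0.25 ± 0.05) and Gclc, of glutathione synthesis, fell (-0.27 ± 0.07).

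**Figure D4:**
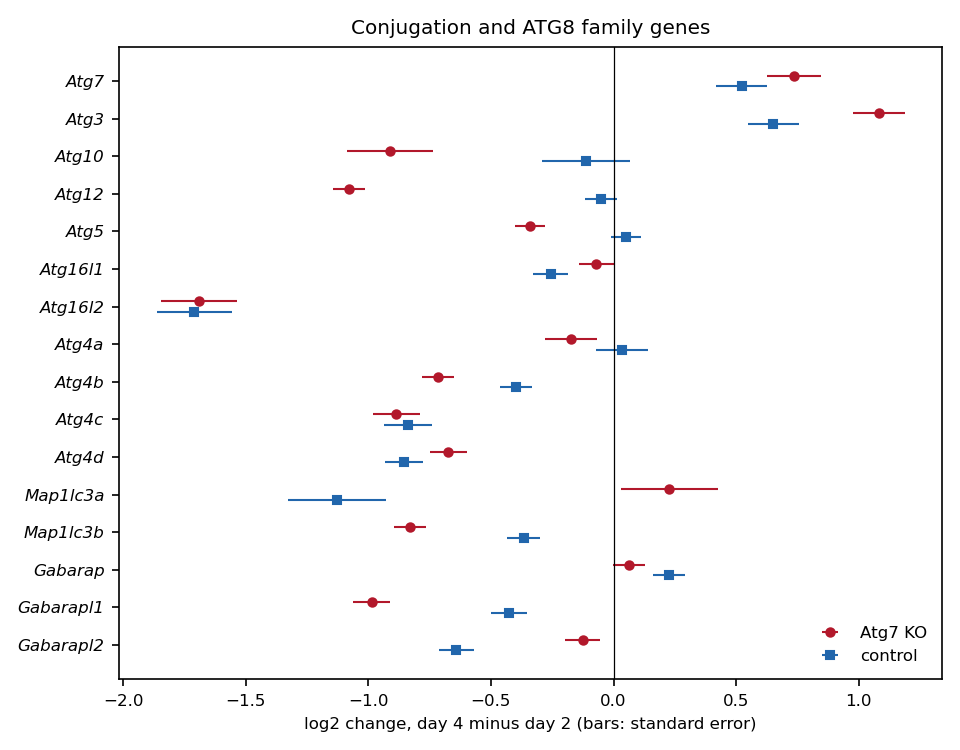
Change between the days (log2 of day 4 over day 2, bars show the standard error) of the 16 conjugation and ATG8 family genes in Atg7 KO cells (red circles) and control cells (blue squares). Atg7 and Atg3 are to the right of 0, Atg12 lies at -1.08 in KO and -0.05 in control cells, and Atg16l2 has nearly the same change in both.

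Genes of the 2 conjugation systems that depend on ATG7, with their ATG8 substrates, mostly fell: 9 of 16 were lower and 2 higher, with a median change of -0.51. Atg7 and Atg3, the E2 enzyme for the ATG8 proteins (1.08 ± 0.11), rose. Atg12, the ubiquitin-like protein that ATG7 activates, was at 92.2, 102 and 95.6 CPM in KO day 4 libraries, against 200.2, 213 and 200.2 CPM in KO day 2 libraries. It fell by 1.08 ± 0.07 (adjusted p = 1.38e-09) with -0.05 ± 0.07 in control cells (adjusted p of the difference = 1.27e-06), and it lies on chromosome 18, where the median change of KO cells was -0.17. Atg10, the E2 enzyme for ATG12, fell to 5.59, 6.97 and 5.94 CPM in KO day 4 libraries, against 13.0, 9.82 and 12.1 CPM in KO day 2 libraries (-0.91 ± 0.18). Gabarapl1 (-0.99 ± 0.07) and Map1lc3b (-0.83 ± 0.07), which encode ATG8 proteins, fell by more than in control cells (-0.42 ± 0.07 and -0.37 ± 0.07, adjusted p of the differences = 0.000619 and 0.00118). Atg16l2, a paralogue of the ATG16L1 scaffold, fell in both KO (-1.69 ± 0.15) and control cells (-1.71 ± 0.15).

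Upstream of conjugation, 8 of 19 genes of the ULK and class III PI3K complexes fell and 5 rose, with a median change of -0.01. The higher count was between 2 and 4 when any 1 KO library was left out. Ulk1, the initiating kinase, was at 166, 171 and 169 CPM in KO day 4 libraries, against 280.2, 293 and 298 CPM in KO day 2 libraries (-0.78 ± 0.06). Atg14, which targets the lipid kinase to autophagosomes, fell by 0.78 ± 0.07, and Atg9a, the lipid scramblase of the growing membrane, fell by 1.21 ± 0.07. Control cells had -0.73 ± 0.06 for Ulk1, -0.87 ± 0.07 for Atg14 and -1.15 ± 0.07 for Atg9a, and none of these 3 differences passed (adjusted p between 0.473 and 0.675).

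Of 19 cargo receptor genes 9 fell and 5 rose. Sqstm1, which encodes p62, did not pass. It had 221, 212 and 209 CPM in KO day 4 libraries, against 207, 202 and 200.2 CPM in KO day 2 libraries (0.07 ± 0.05, adjusted p = 0.211), while control cells rose by 0.79 ± 0.05 (adjusted p of the difference = 2.57e-06). Nbr1, its relative, fell to 209.7, 203 and 209 CPM in KO day 4 libraries, against 285, 286 and 284 CPM in KO day 2 libraries (-0.46 ± 0.05). Tax1bp1, another receptor for ubiquitylated cargo, rose by 0.63 ± 0.06, less than the 1.43 ± 0.06 of control cells (adjusted p of the difference = 3.48e-06). Among the 37 TFEB and lysosome genes 16 were lower and 10 higher, with a median change of -0.10 (32% and 31.2% of all genes tested). The membrane protein gene Lamp1 rose to 667, 667 and 641 CPM in KO day 4 libraries, against 421, 447 and 421 CPM in KO day 2 libraries (0.62 ± 0.05), with -0.04 ± 0.05 in control cells (adjusted p of the difference = 3.23e-06). The protease gene Ctsl also rose (0.79 ± 0.06), whereas Npc2, of cholesterol export, fell (-0.80 ± 0.05).

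Genes of the 2-cell-like state, a rare state of ESC cultures that resembles the 2-cell embryo, rose in 15 of the 16 cases tested with none lower and a median change of 2.74. These are bulk libraries, so more cells of a type and more RNA per cell cannot be told apart. The summed level of the list was between 100.9 and 108.6 CPM in KO day 4 libraries, against 14.71 and 22.41 CPM in KO day 2 libraries. Tdpoz4, a speckle-type BTB gene, had 6.13, 5.82 and 5.74 CPM in KO day 4 libraries, against 0.0991, 0.333 and 0.0857 CPM in KO day 2 libraries (5.0 ± 0.42, adjusted p = 4.27e-08). Its increase was the largest among genes without overlap between the days that reached a mean of 5 CPM on either day. Predicted, unnamed, microRNA and snoRNA genes were left out of that ranking. Zfp352, a zinc finger retrogene, had 5.22, 5.48 and 4.96 CPM in KO day 4 libraries, against 0, 0.0416 and 0.429 CPM in KO day 2 libraries (4.95 ± 0.57). Usp17lc, a deubiquitinase gene of a family with near-identical copies whose reads may be split between them, rose by 3.43 ± 0.22. Dux, the activator of this state, did not pass, with 4 counts over the KO day 4 libraries and 1 over the KO day 2 libraries (adjusted p = 0.229). All 16 members rose in control cells, with a median of 3.14 and control day 4 means of 22.5 CPM for Tdpoz4 and 37.2 CPM for Zfp352, above those of KO cells.

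Germline and meiosis genes rose in 20 of 22 cases and fell in 1, with a median change of 0.85, and the counts in control cells were the same. Tex11, an X-linked meiotic gene, was at 63.5, 60.8 and 66.4 CPM in KO day 4 libraries, against 13.8, 14.3 and 13.8 CPM in KO day 2 libraries (2.19 ± 0.09). Sycp1, of the synaptonemal complex, rose to 166, 221 and 248 CPM in KO day 4 libraries, against 39.2, 38.1 and 36.7 CPM in KO day 2 libraries (2.48 ± 0.12, adjusted p = 7.96e-11). Syce1, of the same complex, rose by 1.74 ± 0.10. Taf7l, a germline subunit of TFIID named for its promoter after its values were seen, rose to 289, 274 and 292 CPM in KO day 4 libraries, against 23.8, 27.1 and 26.3 CPM in KO day 2 libraries (3.47 ± 0.21). Stra8, which opens meiosis, was the member that fell (-0.56 ± 0.22, adjusted p = 0.0317), a call lost with DESeq2 and without any 1 of 4 libraries. Sohlh2 did not pass (0.13 ± 0.13, adjusted p = 0.399).

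MAX and MGA, which repress germline genes in mouse ESCs, bind the E-box CACGTG. This palindrome was found in a RefSeq promoter window of 11 of the 20 germline members that have one (55%), against 1374 of 12143 tested genes (11.3%). The windows of the 2 members with the E-box that rose most are shown, with the E-box in capitals, on GRCm38.p6 and the gene's strand.
Taf7l (chrX:134476441-134476740, minus strand): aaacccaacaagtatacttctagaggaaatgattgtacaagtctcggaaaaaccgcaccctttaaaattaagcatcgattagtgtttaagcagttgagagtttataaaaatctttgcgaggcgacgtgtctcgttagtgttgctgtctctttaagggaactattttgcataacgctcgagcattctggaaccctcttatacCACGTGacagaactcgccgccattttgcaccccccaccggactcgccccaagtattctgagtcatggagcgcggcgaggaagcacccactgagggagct
Sycp1 (chr3:102936051-102936350, minus strand): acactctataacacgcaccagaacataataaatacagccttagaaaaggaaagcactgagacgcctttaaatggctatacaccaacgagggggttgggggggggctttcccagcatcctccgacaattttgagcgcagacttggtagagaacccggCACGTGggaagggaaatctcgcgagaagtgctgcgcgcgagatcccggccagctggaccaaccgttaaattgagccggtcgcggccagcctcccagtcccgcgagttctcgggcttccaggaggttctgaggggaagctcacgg
The match starts at base 202 of the Taf7l window and base 157 of the Sycp1 window. As for the ISR windows, a match does not show that a factor binds there, and the share over this chosen list is no test.

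Imprinted genes were mixed, with 10 of the 22 tested higher, 5 lower and a median change near 0. Peg10, a retrotransposon-derived gene expressed from the paternal allele, had 2375, 2035 and 2314 CPM in KO day 4 libraries, against 293, 284 and 303 CPM in KO day 2 libraries (2.93 ± 0.13, adjusted p = 5.99e-11). Its rise exceeded that of control cells (2.10 ± 0.13, adjusted p of the difference = 0.00158). Mest, a hydrolase-like gene, rose by 1.02 ± 0.08. Usp29 fell to 2.31, 2.59 and 2.67 CPM in KO day 4 libraries, against 10.9, 7.32 and 7.84 CPM in KO day 2 libraries (-1.78 ± 0.21), and Phlda2, a growth repressor of the placenta, fell by 1.21 ± 0.20.

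Endoderm genes rose in 11 of the 16 cases tested, with a median change of 1.20, and 10 rose in control cells. Sox7, an endoderm SOX factor, had 23.7, 26.2 and 24.5 CPM in KO day 4 libraries, against 7.13, 4.20 and 4.80 CPM in KO day 2 libraries (2.21 ± 0.25, adjusted p = 9.18e-07). The groups did not overlap. Of the defining factors, Gata4 rose by 1.23 ± 0.19, Sox17 by 1.16 ± 0.28 and Gata6, a chromosome 18 gene, by 0.70 ± 0.14. The endocytic adaptor gene Dab2 also rose (1.73 ± 0.19). Apoe, the apolipoprotein, was the member that fell (-0.30 ± 0.08).

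Basement membrane genes, which extraembryonic endoderm makes in quantity, rose in 4 of 13 cases and fell in 4, near the shares of all genes tested (31.2% and 32%). Lama1, a laminin chain, had 331, 361 and 299 CPM in KO day 4 libraries, against 149, 115 and 119.8 CPM in KO day 2 libraries (1.37 ± 0.18). Col4a1, of collagen IV, rose by 0.71 ± 0.10, with -0.20 ± 0.10 in control cells (adjusted p of the difference = 0.000189). Lamb2, another laminin chain, fell (-1.62 ± 0.11), as did Nid1 (-0.37 ± 0.07). For 8 of the 13 the change was higher in KO than in control cells, and for none lower. Of all genes tested, 18.6% were higher and 17.6% lower.

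Of 12 primitive streak genes 7 were tested, 3 rose and 2 fell, and 1 fell without any 1 of 3 libraries. T, the brachyury gene, was at 1.70, 1.73 and 2.02 CPM in KO day 4 libraries, against 0.347, 0.499 and 0.257 CPM in KO day 2 libraries (2.28 ± 0.43). Eomes, a T-box factor, rose to 30.9, 27.2 and 31.3 CPM in KO day 4 libraries, against 10.8, 9.32 and 10.2 CPM in KO day 2 libraries (1.56 ± 0.11). Among the 12 neural genes tested 5 rose and 2 fell, and Tubb3, a tubulin of neurons, rose by 1.90 ± 0.08. Among the 9 trophoblast genes tested 2 rose and 3 fell, including Gata3 (-1.40 ± 0.17). Of 22 epithelial genes 9 rose and 6 fell. Krt8, a simple-epithelium keratin, rose to 221, 170.2 and 207 CPM in KO day 4 libraries, against 33.3, 30.8 and 33.6 CPM in KO day 2 libraries (2.62 ± 0.11, adjusted p = 5.08e-11), and its partner Krt18 by 1.60 ± 0.12. The tight junction gene Cldn3 (-2.09 ± 0.26) and Cdh1, E-cadherin (-0.28 ± 0.05), fell. Of 10 mesenchymal genes 2 rose and 1 fell, none fell without any 1 of 5 libraries, and 5 rose and 2 fell without replicate 3 of the day 0 ESCs, with Vim, vimentin, at 0.63 ± 0.21 (adjusted p = 0.0143).

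The 5 Ifitm family genes tested of 7, which encode interferon-inducible membrane proteins, fell, with a median change of -1.93. Ifitm1 was at 4.13, 5.30 and 4.63 CPM in KO day 4 libraries, against 55.5, 52.9 and 46.2 CPM in KO day 2 libraries (-3.45 ± 0.14, adjusted p = 2.24e-11). The fall was larger than in control cells (-1.37 ± 0.14, adjusted p of the difference = 2.01e-06). Control means were 4.87 CPM at day 4 and 12.6 CPM at day 2, so the KO and control levels were far apart only at day 2. Ifitm2 (-1.36 ± 0.07) and Ifitm3 (-1.93 ± 0.12) fell too. Members of the family resemble each other in sequence, so their counts may share reads. Of 12 purine genes 6 rose and 1 fell, with Atic at 0.56 ± 0.05 and Paics at -0.40 ± 0.05, both of de novo synthesis.

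Among the 10 largest increases not yet described, Nxf2, an X-linked germline RNA export gene, had 78.9, 69.3 and 76.6 CPM in KO day 4 libraries, against 2.63, 3.74 and 2.91 CPM in KO day 2 libraries (4.59 ± 0.20, adjusted p = 5.08e-11). Pdha2, the testis form of a pyruvate dehydrogenase subunit, had 27.6, 28.6 and 28.1 CPM in KO day 4 libraries, against 1.63, 1.29 and 1.63 CPM in KO day 2 libraries (4.21 ± 0.15). Dio3, an imprinted thyroid hormone deiodinase, rose by 4.21 ± 0.31 and Rhox6, an X-linked reproductive homeobox gene, by 4.23 ± 0.23. All 4 rose more than in control cells (2.79 ± 0.19 for Nxf2, 3.13 ± 0.15 for Pdha2, 2.39 ± 0.29 for Dio3 and 3.21 ± 0.21 for Rhox6), although the difference of Rhox6 missed the threshold in 3 of the fits that left out 1 library (adjusted p up to 0.0714). Cacna1s, a calcium channel of skeletal muscle (4.80 ± 0.29), Samd9l, an interferon-inducible gene (4.00 ± 0.37), and Cox6a2, a muscle form of a cytochrome oxidase subunit (4.83 ± 0.38), complete the set. Control cells rose by 4.85 ± 0.24 for Cacna1s and 5.48 ± 0.47 for Samd9l, and neither difference passed (adjusted p = 0.961 and 0.113). Cox6a2 was at 5.77, 4.15 and 5.81 CPM in KO day 4 libraries, against 0.0991, 0.208 and 0.214 CPM in KO day 2 libraries, while its control means were 0.341 CPM at day 4 and 0.102 CPM at day 2.

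Among the 10 largest decreases, Aurkc, the meiotic Aurora kinase, was at 9.47, 11.4 and 9.79 CPM in KO day 4 libraries, against 109, 97.0 and 98.1 CPM in KO day 2 libraries (-3.31 ± 0.12, adjusted p = 9.91e-12). Ndrg2, a MYC-repressed gene, was at 4.68, 4.61 and 4.11 CPM in KO day 4 libraries, against 48.9, 52.7 and 46.7 CPM in KO day 2 libraries (-3.46 ± 0.15). Both fell by more than in control cells (-1.75 ± 0.11 for Aurkc and -2.45 ± 0.14 for Ndrg2). Control means of Aurkc were 13.2 CPM at day 4 and 44.6 CPM at day 2, so its KO and control levels were far apart only at day 2. Those of Ndrg2 were 9.88 CPM at day 4 and 53.7 CPM at day 2. Sgo2b, a shugoshin gene (-3.42 ± 0.31), Thrsp, of lipid synthesis (-3.39 ± 0.36), Aox3, an aldehyde oxidase (-3.36 ± 0.34), and Tmem91 (-3.15 ± 0.38) also fell, and each was under 8 CPM in every KO day 2 library. Control cells had -2.73 ± 0.36, -2.66 ± 0.35, -2.14 ± 0.31 and -2.97 ± 0.36 in the same order. None of these differences passed (adjusted p between 0.0612 and 0.831).

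Of the 23 fibroblast marker genes tested, 11 fell and 1 rose, with a median change of -1.28. The counts were the same in control cells, with a median of -1.175. The labels give fibroblast feeder cells for the control day 0 cultures, and whether feeder cells gave this RNA was not tested. Summed, the markers were between 343.2 and 441.2 CPM in KO day 4 libraries, against 818.7 and 1355 CPM in KO day 2 libraries, the highest being replicate 2. Col1a1 was at 37.3, 35.3 and 42.0 CPM in KO day 4 libraries, against 156, 268 and 181 CPM in KO day 2 libraries (-2.40 ± 0.40). Col1a2 (-2.61 ± 0.44), Col3a1 (-2.58 ± 0.67) and Postn, periostin, one of the 10 largest decreases (-3.26 ± 0.50), fell as well. The surface marker Thy1 (-0.50 ± 0.27) and the transcription factors Prrx1 (0.18 ± 0.54) and Twist2 (1.28 ± 0.61) did not pass, and Fbn1, fibrillin, was the member that rose (0.93 ± 0.33, adjusted p = 0.0206), a call lost without any 1 of 4 libraries. The part of fibroblast RNA in the results on matrix and other genes was not tested. Without replicate 2 of KO day 2, 9173 genes changed, and 9 fibroblast markers fell. Without replicate 3 of the day 0 ESCs, 17 fibroblast markers fell and 3 rose.

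Of 9 macrophage and blood markers 5 were tested, 1 rose and 3 fell, and of the 6 endothelial markers tested 3 rose and 1 fell (2 fell without replicate 3 of the day 0 ESCs). Without replicate 1 or replicate 3 of KO day 4, 1 of the blood markers fell. Hba-a1 and Hbb-bt, the globin genes, had 0 counts in all 6 KO libraries. Lyz2, of macrophages, had 1 count over the KO day 4 libraries, against 197 over the KO day 2 libraries, a ratio of 0.00698 after scaling (95% exact binomial interval 0.000176 to 0.0393). Ptprc, of blood cells, had 31 counts over the KO day 4 libraries, against 1 over the KO day 2 libraries. Kdr, the VEGF receptor, rose by 3.82 ± 0.35 and Cdh5, VE-cadherin, by 3.14 ± 0.38 to 4.55, 4.55 and 5.02 CPM in KO day 4 libraries, against 0.297, 0.624 and 0.643 CPM in KO day 2 libraries, while Vwf fell (-1.87 ± 0.13).

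**Figure D5:**
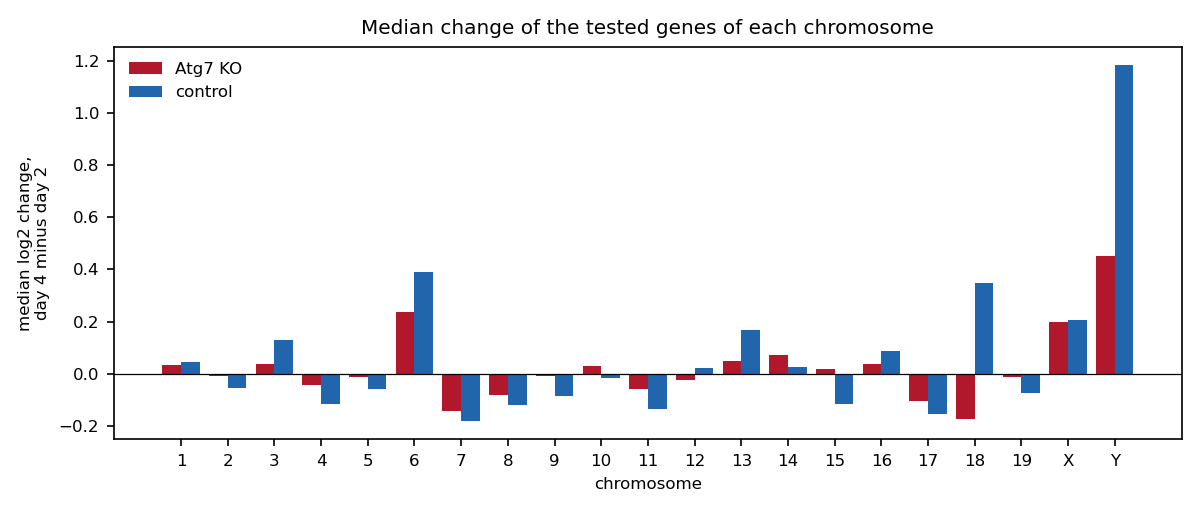
Median change of the tested genes of each chromosome (log2 of day 4 over day 2) in Atg7 KO cells (red) and control cells (blue). Chromosome 18 has a median of -0.17 in KO and 0.35 in control cells, and chromosome Y has 8 tested genes.

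By chromosome, the median change in KO cells was -0.17 over the 408 tested genes of chromosome 18, of which 102 rose and 171 fell. Control cells had a median of 0.35 there, and the median difference was -0.59, beyond that of any other chromosome with over 8 tested genes. Chromosome 6 had the highest autosomal median in KO cells (0.24) and chromosome 7 followed chromosome 18 at the low end (-0.14). Atg12, Cdc25c, Cdx1, Gata6 and Atp5a1, named above, lie on chromosome 18. The part of the chromosome 18 shift in the changes of these 5 genes was not tested. Atg7, Nanog and Dppa3 are among the named genes on chromosome 6, where control cells had a median of 0.39 and the median difference was -0.17. The part of that chromosome's shift in their changes was not tested either.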

How the data were processed

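Polyadenylated RNA was sequenced in 15 libraries, in 5 groups of 3, and for each library the authors deposited 1 table of raw read counts per gene symbol, with 24982 symbols. Per the submitters' processing notes, STAR, StringTie, featureCounts and DESeq2 were among the authors' tools and mm10 and GRCm38 among the builds, without versions. The sources used here give neither the annotation nor the strand setting of the counting, so antisense and overlapping genes cannot be told apart. Samples were mapped to groups by their titles.

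From the deposited counts, library sizes were scaled by TMM and low genes were dropped with filterByExpr (minimum count 10, minimum total 15), which left 15696 genes. One model with a mean per group over all 15 libraries was fitted with edgeR 4.0.16 in R 4.3.3 (quasi-likelihood test, two-sided, limma 3.58.1), with Benjamini-Hochberg adjustment over all genes tested and a threshold of 0.05. Library totals over the series were between 14059237 and 23371546 counts, and counts of 2 replicates of a KO group differed by more than sampling noise (chi-square over its degrees of freedom between 3.201 and 6.319), so none was counted as a repeat. Intervals and ratios of counts cover counting error only. Of the 43 gene lists, each was described by its counts and median, with no set test. The members, lists and rules were chosen with earlier results of these data known.

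Named were Atg7, the 10 genes that rose most and the 10 that fell most among those without overlap and reaching a mean of 5 CPM on one day (predicted genes left out), any member of the pluripotency, formative and autophagy lists, and up to 3 members per direction of the other lists by smallest p, with defining markers and all members of a direction holding few. Alternatives were scaling by RLE or upper quartile, no filter or at least 10 CPM in 3 libraries, DESeq2 1.42.0, only the groups compared, a replicate block, a test against a 1.5-fold change, no chromosome 18 genes, leaving out each KO or control library of day 2 and day 4 in turn, and, chosen after seeing the data, leaving out replicate 3 of the day 0 ESCs. The fits were tested on simulated counts first. Promoter windows and gene positions are from RefSeq (GRCm38.p6) and GENCODE M21. Some items are not reported here.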

Additional observations from a re-analysis of the deposited data

Results flagged for a closer look

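The change between day 2 and day 4 differed between KO and control cells for 107 of the 196 genes named above, each by the test of the difference itself in edgeR's model of all 15 libraries (adjusted p under 0.05, as for 36.1% of all genes tested). Many of the named genes were picked by their KO values, and some after their values were seen. Their share therefore cannot be compared with that of all genes. The values below are the log2 change of KO cells minus that of control cells. A positive value means that KO cells rose more or fell less, and a negative value that they rose less or fell more. Groups of 3 libraries are too small for the outlier check.

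Pluripotency and formative genes had the higher change in KO cells by 2.05 for Utf1, 2.03 for Tcf15, 1.28 for Zfp57, 1.10 for Klf5, 0.88 for Klf4, 0.88 for Trim28, 0.72 for Nr0b1, 0.63 for Tfcp2l1, 0.50 for Lin28b, 0.44 for Esrrb, 0.44 for Pou5f1 and 0.22 for Tead2. Of the other pluripotency and formative genes, KO cells had the lower change by -2.80 for Spic, -2.65 for Dppa3, -1.88 for Otx2, -0.91 for Sall2 and -0.40 for Nanog. DNA methylation genes had the higher change in KO cells by 0.79 for Dnmt3b, 0.64 for Dnmt3a, 0.44 for Uhrf1, 0.44 for Dnmt1 and 0.43 for Tet2. Signalling genes had the higher change in KO cells by 2.64 for Bmp8b, 1.88 for Inhbb, 0.76 for Bcl3, 0.59 for Znrf3, 0.58 for Spred2, 0.41 for Btg2, 0.39 for Fgf4 and 0.30 for Tcf7. Of the other signalling genes, KO cells had the lower change by -1.55 for Ctgf, -1.09 for Cyr61, -0.39 for Smad3 and -0.36 for Dusp4. Stress response, amino acid and folate genes had the higher change in KO cells by 4.51 for Cebpb, 1.46 for Slc7a5, 1.43 for Gdf15, 1.08 for Atf5, 1.03 for Slc7a1, 1.00 for Mthfd2, 0.88 for Wars, 0.88 for Cbs, 0.80 for Nupr1, 0.65 for Pycr1, 0.56 for Tyms, 0.50 for Gars and 0.46 for Hspa5. Of the other stress response, amino acid and folate genes, KO cells had the lower change by -0.42 for Atf6.

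Hypoxia and metabolism genes had the higher change in KO cells by 0.67 for Vegfa, 0.49 for Insig1, 0.45 for Hif1a, 0.37 for Hk1, 0.36 for Atic, 0.34 for Sdhc and 0.32 for Sdha. Of the other hypoxia and metabolism genes, KO cells had the lower change by -3.55 for Bnip3, -2.99 for Adm, -2.93 for Egln3, -2.66 for Aldoc, -1.32 for P4ha1, -0.66 for Pdk1, -0.52 for Mxi1, -0.51 for Pfkm, -0.40 for Gapdh and -0.27 for Atp5a1. Cell cycle, p53, cell death and redox genes had the higher change in KO cells by 3.05 for Hrk, 0.61 for Trp53, 0.44 for Gins2 and 0.28 for Txnrd1. Of the other cell cycle, p53, cell death and redox genes, KO cells had the lower change by -1.62 for Cdc25c, -1.36 for Bmf, -0.73 for Anln, -0.44 for Plk1, -0.42 for Ccnb2, -0.30 for Mcl1 and -0.18 for Ccna2. Autophagy and lysosome genes had the higher change in KO cells by 0.66 for Lamp1, 0.43 for Atg3 and 0.26 for Ctsl. Of the other autophagy and lysosome genes, KO cells had the lower change by -1.03 for Atg12, -0.80 for Tax1bp1, -0.80 for Atg10, -0.72 for Sqstm1, -0.56 for Gabarapl1, -0.46 for Map1lc3b, -0.39 for Nbr1 and -0.23 for Npc2. Germline, imprinted, lineage and structural genes had the higher change in KO cells by 0.91 for Col4a1, 0.83 for Peg10, 0.80 for Taf7l, 0.71 for Gata6, 0.52 for Syce1, 0.40 for Ifitm2, 0.38 for Nid1 and 0.31 for Cdh1. Of the other germline, imprinted, lineage and structural genes, KO cells had the lower change by -2.09 for Ifitm1, -1.49 for Cldn3, -1.43 for Usp29, -1.16 for Sox7 and -0.79 for Phlda2. Remaining genes with the largest changes had the higher change in KO cells by 3.12 for Cox6a2, 1.83 for Dio3, 1.80 for Nxf2, 1.08 for Pdha2 and 1.02 for Rhox6. Of the other remaining genes with the largest changes, KO cells had the lower change by -1.56 for Aurkc and -1.02 for Ndrg2.

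Cebpb had the largest difference of these genes and Bnip3 the most negative, with Bnip3 lower and Cebpb higher at day 4 in all 3 KO libraries than at day 2. As Cebpb was named after its values were seen, its rank describes the chosen genes only. Atg12, Atp5a1, Cdc25c and Gata6 lie on chromosome 18, where the median difference was -0.59 over 408 genes. The part of that shift in their values was not tested. The difference of Dnmt3b missed the threshold in 14 alternatives, with DESeq2 (adjusted p = 0.0695), the filter at 10 CPM (0.0596) and each of the 12 fits that left out 1 KO or control library (up to 0.0772). That of Nanog missed it in 8 of those 12 fits (up to 0.0936). Btg2 missed it in 14 alternatives, Taf7l in 13, Ccna2 in 11, Atg3 in 10, Lin28b in 9, Ctsl and Nr0b1 in 8, Dusp4, Phlda2 and Tead2 in 6, Hspa5, Npc2 and Smad3 in 5, Rhox6 and Sox7 in 3, Atg10 and Nupr1 in 2, and Atf6, Cox6a2, Gata6, Mcl1 and Uhrf1 in 1.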

How the results depend on the processing

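The count of 9922 genes that changed in KO cells stood between 7481 (at least 10 CPM in 3 libraries, which tests fewer genes) and 11036 (without replicate 3 of the day 0 ESCs, an alternative chosen after seeing the data), with 10856 for only the groups compared and 9849 by DESeq2, apart from the test against a 1.5-fold change. That test called 3655 genes in KO cells, 1822 higher and 1833 lower. It called 846 for the difference between KO and control cells, 350 higher and 496 lower, and 4794 in control cells, 2525 higher and 2269 lower; it asks for a larger change by construction. Leaving out each KO library in turn gave 9154 to 9301 genes in KO cells. Leaving out each KO or control library in turn gave 4832 to 5132 for the difference, which was 7291 without replicate 3 of the day 0 ESCs. The chromosome 18 median in KO cells lay between -0.24 and -0.08 over the alternatives and its difference from control cells between -0.65 and -0.58. No result reversed. Calls of single genes were not put to the test against a 1.5-fold change, which smaller changes could not pass. A gene that a filter removed was not counted under that filter. Within these limits, of the 185 named genes that passed, 4 lost the call under some alternative (Egln3, Fbn1, Sox2 and Stra8). So did 24 of the 107 named genes whose change differed between KO and control cells, each named above with its number of alternatives. The cause was not tested. Of the named genes that did not pass, 7 gained the call: Gdf15 under 8 alternatives, Dnmt1 under 3, and Nupr1, Sohlh2, Thy1, Twist2 and Uhrf1 with only the groups compared and without replicate 3 of the day 0 ESCs. For the difference between KO and control cells, 22 named genes gained the call with only the groups compared. They included Vim (adjusted p = 3.81e-07), Bmp7 (0.000311), Id1 (0.000375) and Slc7a11 (0.00402) by edgeR's test. With the filter at 10 CPM, 7 instead of 11 endoderm genes and 7 instead of 11 BMP and Id genes rose. With only the groups compared, the p53 list gave 8 risen and 8 fallen, and 17 fibroblast markers fell.

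With the replicate number as a block (replicate block), 9825 genes changed in KO cells and 5518 differed from control cells. Same-numbered KO libraries of day 4 and day 2 did not deviate together (correlations of -0.00438, -0.052 and -0.0201). With 3 libraries per group, this cannot show whether same-numbered libraries share a culture or batch, and the labels give only the number. Depth limits low genes such as Dux, with 4 counts over the KO day 4 libraries and 1 over the KO day 2 libraries.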
